A study of Mus musculus with 9 samples.

Results

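The 9 genes described here encode structural proteins of central myelin and of mature oligodendrocytes: Mbp, Mog, Mag, Mobp, Cnp, Cldn11, Mal, Opalin and Ermn. They were chosen by name, as all rows of the deposited transcript table whose RefSeq identifier belongs to these symbols, which gave 19 of 33299 transcripts and 9 of 23798 genes. RNA came from mouse brain samples labelled as oligodendrocytes, in 3 groups of 3 libraries: TG mice treated with NM-101, TG mice given placebo, and WT mice given placebo. The title of the series is about what alpha-synuclein made by neurons does to oligodendrocytes. The labels name no transgene, promoter, strain, age, sex, dose or duration. Whether each replicate is a separate animal is not labelled either, and the p-values below cover only the spread between these libraries, which may be technical.

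Oligodendrocytes wrap axons in myelin, a stack of plasma membrane that speeds nerve conduction. In compact myelin the cytoplasmic faces of the membrane are pressed together by basic proteins, while other proteins hold the wraps at their edges, face the axon or lie on the outer surface. Most of these genes are switched on late, when a precursor becomes a myelinating cell, and the transcription factors MYRF and SOX10 are known to drive them. Their mRNAs are often used as a measure of how much mature oligodendrocyte and white matter a brain sample holds.

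The 3 WT columns held counts and the 6 TG columns held log2 values, read here as log2(FPKM + 1), where FPKM is reads scaled to transcript length and to library size. WT libraries had 10612290, 14041951 and 11774367 counts. The TG columns carry no counts, so no counting error can be given for them. WT values are therefore given as CPM (counts scaled to the library total), and set beside the TG values only as rebuilt log2(RPKM + 1), the same length scaling applied to the counts. The libraries labelled as oligodendrocytes also held abundant neuronal RNA: 15 neuron markers summed to between 5876 and 6457 FPKM in TG NM-101 and between 5707 and 6171 FPKM in TG placebo. The 9 myelin genes summed to between 1735 and 3159 FPKM in TG NM-101 and between 1300 and 4129 FPKM in TG placebo. In bulk RNA of this kind, fewer oligodendrocytes and less of an mRNA per cell cannot be told apart. Of 9 genes listed for the myelin of Schwann cells in peripheral nerve, Sox2 reached 5.28, Pmp22 3.50 and Egr2 1.85 on the log2(FPKM + 1) scale in a TG library, and all 3 are known from other cells as well. The other 6 reached at most 0.79, with Prx at most 0.61 and Pmp2 0.09.

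In WT placebo brain the 9 genes together took 0.573%, 0.451% and 0.732% of all counts. Mbp, the basic protein that compacts the membrane, made up 71.4%, 75.3% and 76.1% of those. It had 43478, 47667 and 65591 counts, or 0.410% (95% exact binomial interval 0.406 to 0.414), 0.340% (0.336 to 0.343) and 0.557% (0.553 to 0.561) of each library. These intervals cover counting error only, and the 3 libraries lay far outside each other's intervals. Mobp, the other abundant basic protein of compact myelin, followed at 380 ± 91.4 CPM (SD, n = 3). Cnp, an enzyme of the cytoplasmic channels of myelin, stood at 365 ± 52.3 CPM (SD, n = 3). Mal, a proteolipid of raft-like membrane and apical sorting, stood at 280 ± 77.1 CPM and Cldn11, the claudin that forms the tight junctions between wraps, at 173 ± 64.2 CPM (SD, n = 3 each). Mag, the adhesion receptor on the axon-facing wrap, had 115 ± 30.0 CPM and Ermn, a cytoskeletal protein of mature oligodendrocytes, 94.1 ± 12.5 CPM (SD, n = 3 each). Mog, an immunoglobulin-like protein of the outermost surface, had 66.5 ± 16.7 CPM, and Opalin, a transmembrane glycoprotein of oligodendrocytes, 30.1 ± 5.55 CPM (SD, n = 3 each). CPM is not divided by length, and this order is one of counts. The protocols name QuantSeq, whose reads come from the 3′ end of transcripts, so counts need not grow with transcript length. FPKM and RPKM divide by length all the same. The order of genes and the shares of transcripts in those units can therefore differ from those in counts. Mobp and Cnp, Cldn11 and Mag, and Mag and Ermn, which are neighbours in the order by CPM, differed by less than the larger SD of each pair.

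The WT libraries moved together. Replicate 2 was the lowest of the 3 libraries for all 9 genes on the length-scaled values, and replicate 3 the highest for 8 of 9, the exception being Cldn11. Over 12410 genes the corresponding shares were 32.8% and 29.4%. For Cnp and Mog replicates 1 and 3 were nearly level, at 394.1 and 395.5 CPM for Cnp and 75.95 and 76.35 CPM for Mog. Between the highest and the lowest WT library the CPM differed 2.19-fold for Cldn11 and 1.64-fold for Mbp, and least for Cnp and Ermn, at 1.30-fold each. Cldn11 had 217, 99.0 and 202 CPM in replicates 1 to 3, so replicate 2 alone was low.

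**Figure D1:**
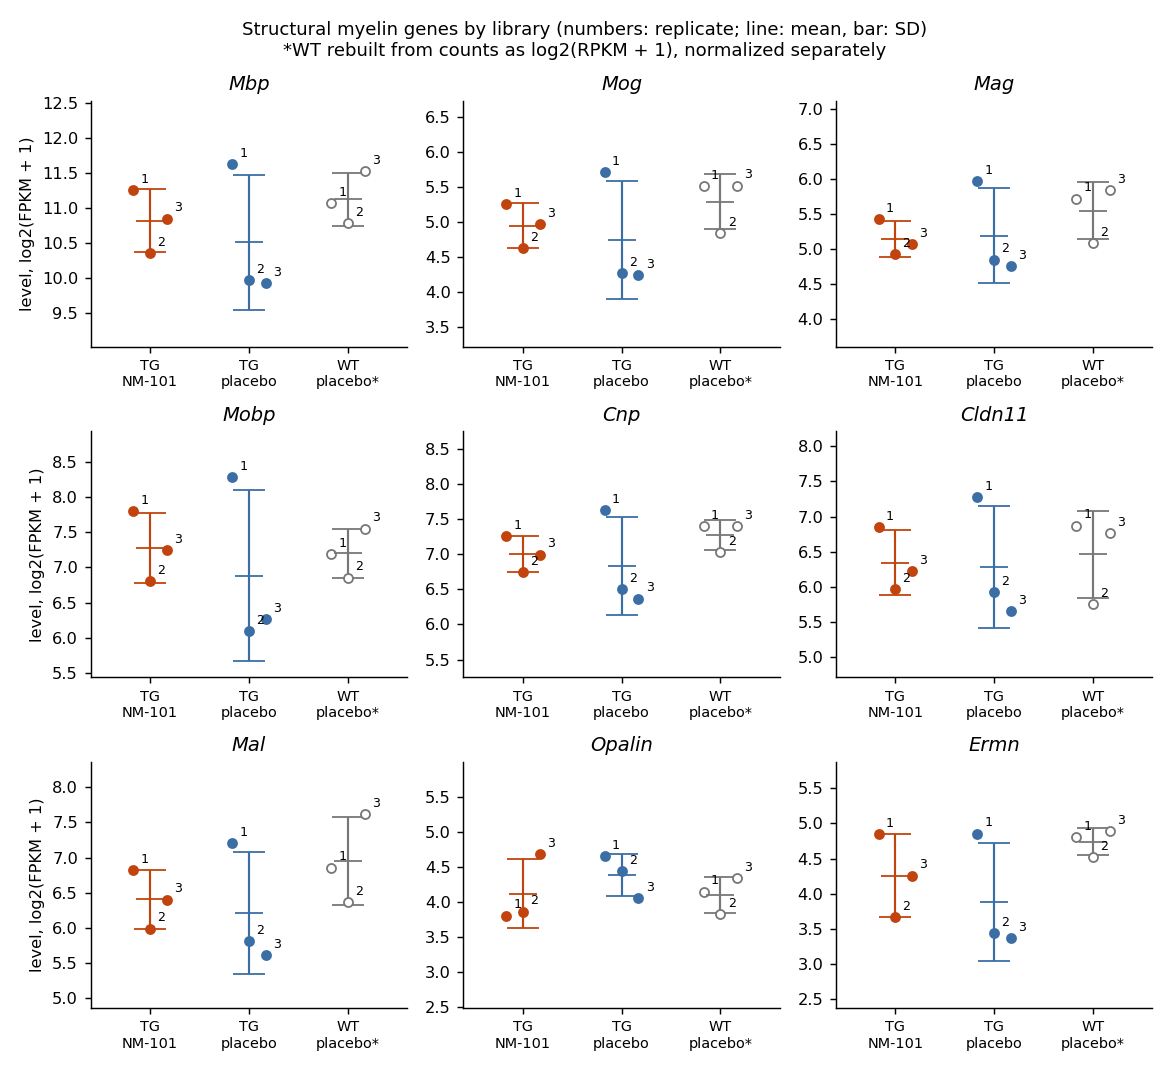
Level of each of the 9 genes in every library, in log2(FPKM + 1) for TG NM-101 and TG placebo and in rebuilt log2(RPKM + 1) for WT placebo, with the mean (line) and SD (bar) of 3 libraries; numbers beside the points are replicates and every panel spans the same range. In 8 panels TG placebo replicate 1 is above and TG placebo replicates 2 and 3 are below all 3 TG NM-101 libraries, and Opalin is the exception.

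Set against placebo within the TG genotype, NM-101 gave no member gene a difference that passed the test. The count was 0 of 9, against 0.134% of 12699 genes in either direction and 0.102% higher under NM-101 (limma, Benjamini-Hochberg over all genes, threshold 0.05). At an unadjusted p under 0.05 by limma, 1355 of the 12699 genes were higher and 529 lower, against 0 of 9 members. The differences were positive for 7 and negative for 2, with a median of 0.19 on the log2 scale, beside 0.03 over all genes tested, of which 7045 were positive. No member had groups that did not overlap, against 19.6% of genes tested. The spread inside the groups was large: the pooled SD of these genes ran from 0.41 to 0.93, with a median of 0.68, against 0.16 for the median gene.

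Among the compact myelin genes, Mbp stood at 11.25, 10.36 and 10.85 in TG NM-101 replicates 1 to 3, against 11.62, 9.98 and 9.93 in TG placebo replicates 1 to 3. Replicate 1 of TG placebo was thus the highest of the 6 libraries and its replicates 2 and 3 the lowest. The means were 10.82 ± 0.45 in TG NM-101 and 10.51 ± 0.96 in TG placebo (SD, n = 3 each), a difference of 0.31 with an SE of 0.55 and a limma adjusted p of 0.821. Mobp stood at 7.80, 6.80 and 7.24 under NM-101, against 8.28, 6.09 and 6.26 under placebo. Its order of libraries was nearly the same as that of Mbp, and its spread was the widest of the 9, wider than that of 99.3% of genes tested. The Mobp difference was 0.40 with an SE of 0.70 (limma adjusted p = 0.821).

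Mog, on the outer surface of the sheath and well known as a target of demyelinating antibodies, had 5.25, 4.62 and 4.97 in TG NM-101, against 5.71, 4.27 and 4.24 in TG placebo. Mag, on the inner wrap, had 5.43, 4.93 and 5.08 in TG NM-101, against 5.97, 4.85 and 4.75 in TG placebo. In both genes the placebo values bracketed the NM-101 values. The difference was 0.21 with an SE of 0.44 for Mog and -0.05 with an SE of 0.34 for Mag (limma adjusted p = 0.852 and 0.962).

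The same picture was given by Cnp, Ermn, Cldn11 and Mal. Cnp had 7.25, 6.74 and 6.99 in TG NM-101, against 7.63, 6.50 and 6.37 in TG placebo. Ermn had 4.84, 3.67 and 4.26 in TG NM-101, against 4.86, 3.44 and 3.36 in TG placebo. For Ermn the highest libraries of the groups were almost level, and all other libraries lay lower. Cldn11 had 6.85, 5.96 and 6.22 in TG NM-101, against 7.28, 5.92 and 5.65 in TG placebo. Mal had 6.82, 5.99 and 6.40 in TG NM-101, against 7.21, 5.81 and 5.61 in TG placebo. The differences of these 4 genes lay between 0.06 (Cldn11) and 0.37 (Ermn) with SEs between 0.35 and 0.51, and their limma adjusted p-values between 0.767 and 0.968.

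Opalin did not follow the others. It stood at 3.80, 3.86 and 4.68 in TG NM-101, against 4.66, 4.44 and 4.06 in TG placebo. Its highest library was NM-101 replicate 3 and its lowest NM-101 replicate 1, which was the second highest library for Mbp. The difference was -0.27 with an SE of 0.26 (limma adjusted p = 0.653), and the groups overlapped.

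**Figure D2:**
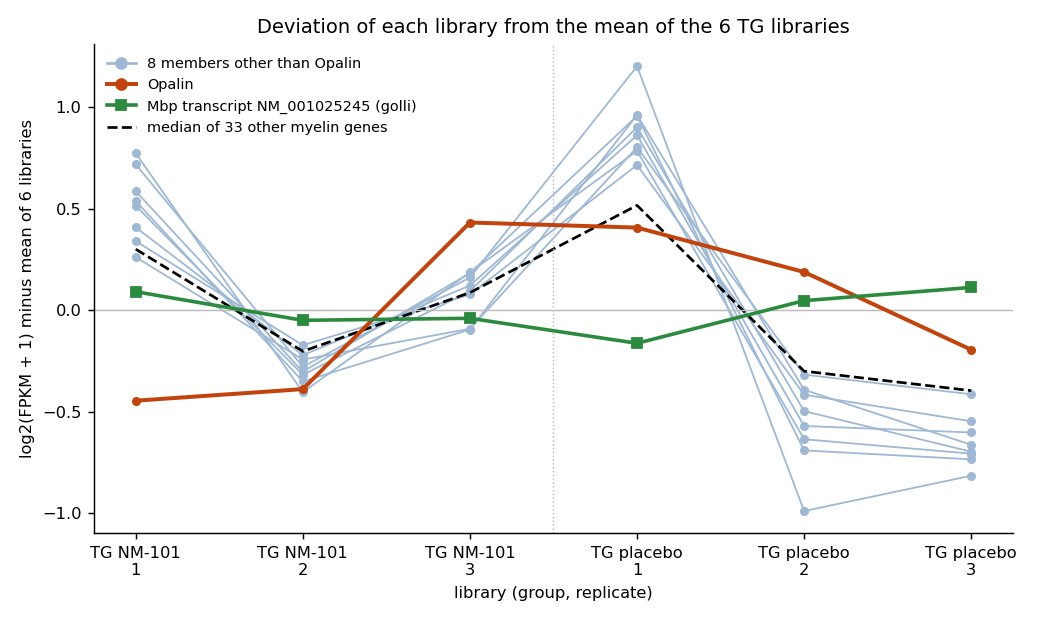
Deviation of each gene from its own mean over the 6 TG libraries (vertical axis, log2 scale) in each library (horizontal axis), for 8 members in light blue, Opalin in red, the Mbp transcript NM_001025245 in green and, dashed, the median of 33 other myelin genes. The light blue lines share 1 shape, with a median deviation over the 9 members of 0.86 in TG placebo replicate 1 and of -0.50 and -0.66 in replicates 2 and 3.

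Most members thus differed more between libraries of a group than between groups. The median deviation of the 9 genes from their own means was 0.52, -0.30 and 0.12 in TG NM-101 replicates 1 to 3 and 0.86, -0.50 and -0.66 in TG placebo replicates 1 to 3. For 8 of 9 members TG placebo replicate 1 lay above every NM-101 library while replicates 2 and 3 lay below every one. This order, picked out after the values were seen, was found in 4.85% of all genes tested and in 19 of 33 other myelin and mature oligodendrocyte genes. Within the NM-101 group, replicate 1 exceeded replicate 3 and replicate 3 exceeded replicate 2 for 8 of 9 members, and for 20.8% of all genes. Replicate 1 of TG placebo exceeded the mean of replicates 2 and 3 by 1.67 for Mbp (3.18-fold), 2.10 for Mobp (4.30-fold) and 1.17 for Mag (2.25-fold), and by 0.41 for Opalin (1.33-fold).

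Without TG placebo replicate 1 the median difference was 0.69, and 3 of 9 members passed, all higher under NM-101, against 9.6% of genes higher in that fit and 17.8% in either direction. Each library was left out in turn, but this one is singled out here after the values were seen. The placebo libraries left lay below every NM-101 library for 8 of 9 members. A positive sign for those 8 was thus fixed by the choice, and the p-values of this fit are descriptive only. Mbp differed by 0.87 with an SE of 0.23, Cnp by 0.56 with an SE of 0.14 and Mog by 0.69 with an SE of 0.16 (limma adjusted p = 0.0394, 0.0217 and 0.0198). Mobp had a difference of 1.10 (SE 0.29, limma adjusted p = 0.0579) and Opalin one of -0.13 (SE 0.29, limma adjusted p = 0.791). Other libraries pulled the other way: without TG placebo replicate 3 the differences of Mog, Mag, Cnp, Cldn11, Mal and Opalin were all negative.

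**Figure D3:**
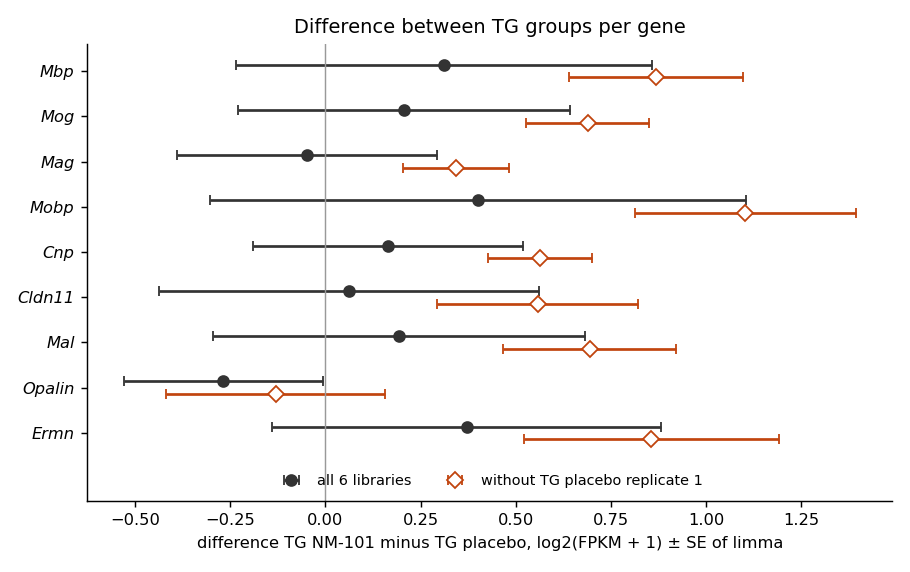
Difference of TG NM-101 minus TG placebo for each gene (horizontal axis, log2 scale) with the SE of limma, from all 6 libraries (black circles) and without TG placebo replicate 1 (open red diamonds). Every member except Opalin and Mag has a positive difference with all libraries, and with replicate 1 left out 8 of the 9 are positive.

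Other signals differed between the same placebo libraries. The 12 ependymal and choroid plexus markers summed to 79.1, 1073 and 90.2 FPKM in TG NM-101 replicates 1 to 3, against 4643, 14.4 and 20.1 FPKM in TG placebo replicates 1 to 3. The 8 measured nuclear-retained RNAs summed to 438, 428 and 349 FPKM in TG NM-101, against 234, 1177 and 1420 FPKM in TG placebo. Placebo replicates 2 and 3, which were low in myelin genes, were thus low in choroid plexus markers and high in nuclear RNA, and replicate 1 was the reverse. Within TG NM-101 this did not hold for the sum: replicate 2 had the lowest myelin genes and the highest choroid plexus sum. The median deviation of that list was also highest there, at -0.28, 0.59 and -0.33 in replicates 1 to 3. Its genes were not alike. Enkur, Ccdc153 and Tmem212 were highest in NM-101 replicate 1, at 2.49, 3.93 and 3.24, against 2.11, 3.74 and 2.90 in replicate 2. Endothelial and mural markers summed to between 93.5 and 111 FPKM in TG NM-101, against 109, 145 and 151 FPKM in TG placebo. Their part in the myelin values was not tested.

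The members were next set against each other inside each library, as the log2 level of a gene minus the median of the other 8, a measure chosen after the values were seen. With 3 libraries a group the exact permutation test cannot go below 0.1. Over the 6 libraries this relative level of Mog had a range of 0.25, where its own level had a range of 1.47. That of Cldn11 had 0.26 against 1.63, and that of Mal 0.35 against 1.60. Mbp kept within 0.56 relative to the other 8. Mobp had a wider relative range of 0.93, with 1.67, 1.36 and 1.59 above the median in TG NM-101, against 1.69, 0.76 and 1.08 in TG placebo. Opalin ranged over 1.61 relative to the other 8, more than the 0.88 of its level. Relative differences between NM-101 and placebo ran from -0.40 for Opalin (exact permutation p = 0.5, two-sided) to 0.36 for Mobp (exact permutation p = 0.4). The smallest exact permutation p of the 9 was 0.2, for Mbp, Mal and Ermn, at relative differences of 0.27, 0.19 and 0.24.

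Promoters are shown for the members because 8 of the 9 moved together. RefSeq windows of GRCm38.p6, from 250 bases before to 50 bases after an annotated start, were given for 8 members, all but Mbp. A word bound by MYRF, CTGGCAC or CTGGTAC on either strand, was present in the first window of 4 of 8, in Mog, Mag, Cnp and Opalin, and in 7.09% of 32817 windows. The first base of the word lay at position -83 in Mog, -68 in Mag, -81 in Cnp and 37 in Opalin, counted from the start. Mag has 3 annotated windows, of which the first listed was used. In the second, whose start lies farther upstream, the MYRF word lay at -9, and the third held no MYRF or SOX word. Of the members with the word, Mog, Mag and Cnp followed the shared library pattern and Opalin did not. The 4 windows, 5′ to 3′ on the strand of the gene, have in capitals the MYRF words, the SOX words ACAAAG and ACAATG and the E-box CAGCTG, each on either strand. The Mog window lies at chr17:37023349-37023648, Mag at chr7:30914814-30915113, both on the minus strand, Cnp at chr11:100574689-100574988 on the plus strand, and Opalin at chr19:41077064-41077363 on the minus strand.
Mog: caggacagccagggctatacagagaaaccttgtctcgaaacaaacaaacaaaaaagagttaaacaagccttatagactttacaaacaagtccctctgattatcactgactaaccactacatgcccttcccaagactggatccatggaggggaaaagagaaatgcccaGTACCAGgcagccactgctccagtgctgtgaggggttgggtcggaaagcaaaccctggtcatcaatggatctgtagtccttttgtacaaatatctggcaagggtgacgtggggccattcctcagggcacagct
Mag: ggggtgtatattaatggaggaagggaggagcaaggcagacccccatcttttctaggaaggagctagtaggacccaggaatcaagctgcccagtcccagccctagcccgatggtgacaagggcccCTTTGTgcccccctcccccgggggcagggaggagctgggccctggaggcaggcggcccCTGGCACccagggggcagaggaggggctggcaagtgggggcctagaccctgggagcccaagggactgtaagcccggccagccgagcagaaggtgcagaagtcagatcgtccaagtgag
Cnp: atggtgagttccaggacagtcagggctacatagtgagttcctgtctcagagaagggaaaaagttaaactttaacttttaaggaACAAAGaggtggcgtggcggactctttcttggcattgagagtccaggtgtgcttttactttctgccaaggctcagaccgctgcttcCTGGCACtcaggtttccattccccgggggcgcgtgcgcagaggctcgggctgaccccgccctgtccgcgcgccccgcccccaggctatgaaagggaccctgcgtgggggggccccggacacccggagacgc
Opalin: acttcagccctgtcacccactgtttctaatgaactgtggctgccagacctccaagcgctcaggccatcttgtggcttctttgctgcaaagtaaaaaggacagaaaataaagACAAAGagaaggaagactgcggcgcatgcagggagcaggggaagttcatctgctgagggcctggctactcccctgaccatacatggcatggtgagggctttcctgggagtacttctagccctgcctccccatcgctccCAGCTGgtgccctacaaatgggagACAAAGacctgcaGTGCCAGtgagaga

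A SOX word was found in 5 of 8 members (Mag, Mobp, Cnp, Opalin and Ermn), and in 28.6% of all windows. Mobp held 6 copies of ACAAAG. The E-box occurred in 1 of 8, Opalin, and in 16.3% of windows, and the TATA box word TATAAA in 0 of 8 and in 13.6% of windows. The Cldn11 and Mal windows held none of these words, and both genes followed the shared library pattern. The words do not overlap in the windows printed, and a match describes letters and not a bound site.

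Mbp lies on chromosome 18 from 82475091 to 82585637 in GRCm38 and had 8 transcripts in the table. The classic transcripts, which encode the myelin proteins, begin between 79.3 and 79.4 kb downstream of the first annotated start. That upstream start gives the golli transcripts, which are made in neurons and immune cells as well as in oligodendrocytes. NM_001025259, a classic transcript, carried between 74.6% and 77.9% of the Mbp FPKM in TG NM-101 and between 78.4% and 80.0% in TG placebo. It stood at 10.89, 9.97 and 10.43 in TG NM-101, against 11.30, 9.63 and 9.58 in TG placebo. NM_001025255 followed at 8.32, 7.63 and 8.25 in TG NM-101, against 8.66, 7.03 and 7.00 in TG placebo. These 2 transcripts share 1922 exonic bases and end within 4 bases of each other, so reads from the 3′ end cannot separate them and their split is an estimate of the authors' counting.

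The golli transcript NM_001025245 had a course of its own. It starts at 82475146 and ends at 82558703, in a last exon of 4384 bases, 26924 bases before the end of NM_001025259, with 235 exonic bases in common. Those are the first exon of NM_001025259, which lies inside the last exon of the golli transcript. From 79.6 kb, where that first exon ends, to its own 3′ end at 83.6 kb, the golli exon lies in the first intron of the classic transcripts. Their next exon starts at 86.6 kb or later. Unspliced classic RNA would give reads in the same place, and its part in these values was not tested. NM_001025245 stood at 4.23, 4.09 and 4.10 in TG NM-101, against 3.98, 4.19 and 4.25 in TG placebo. Its range over the 6 libraries was 0.28, against 1.72 for NM_001025259, and TG placebo replicate 1, the highest library of the classic transcript, was its lowest. The means were 4.14 ± 0.08 in TG NM-101 and 4.14 ± 0.14 in TG placebo (SD, n = 3 each), a difference of 0.00 with an SE of 0.11 (limma over all transcripts, adjusted p = 0.997). In WT placebo it had 65.3, 96.5 and 79.7 CPM in replicates 1 to 3, while NM_001025259 had 3194, 2504 and 4232 CPM. WT replicate 2 was thus the highest for the golli transcript and the lowest for the classic one. The other golli transcript, NM_010777, shares the distal end of the classic ones and stood at 3.28, 2.10 and 3.52 in TG NM-101, against 2.67, 2.07 and 2.07 in TG placebo.

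**Figure D4:**
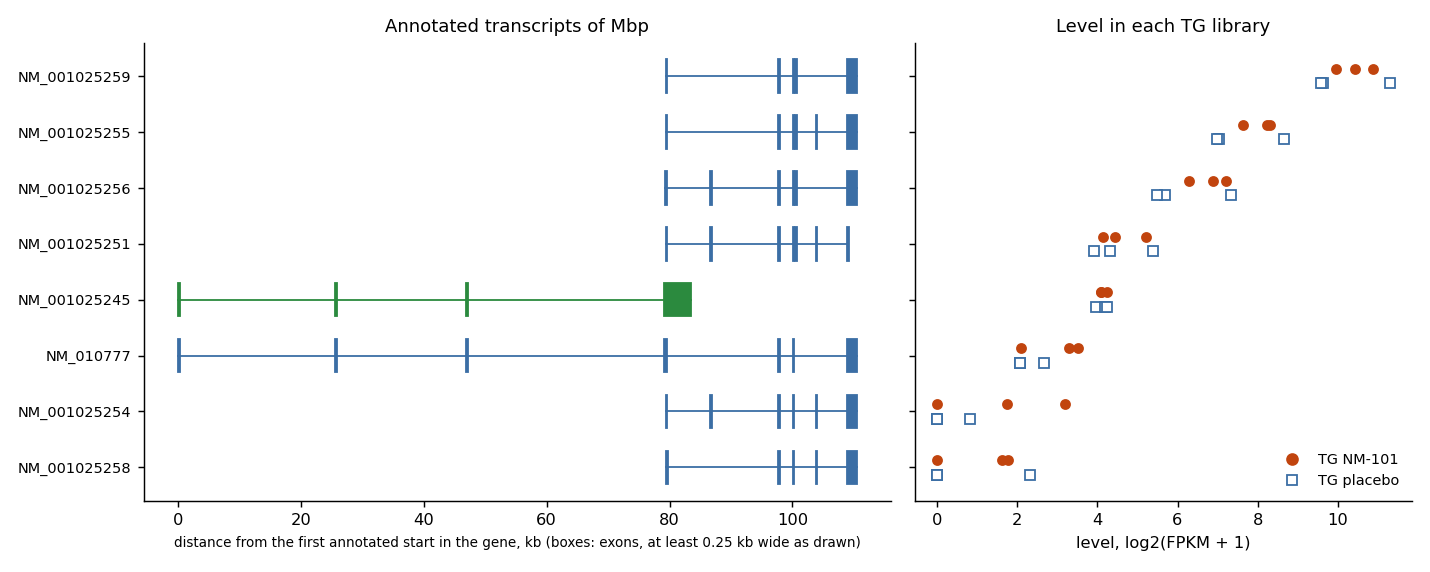
Left, exons of the 8 Mbp transcripts in the table by distance in kb from the first annotated start. Right, level of each in the 3 TG NM-101 (circles) and 3 TG placebo libraries (squares), in log2(FPKM + 1). The green transcript NM_001025245, whose last exon ends before the other 3′ ends, spans 0.28 over the 6 libraries, and NM_001025259 spans 1.72.

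At the level of transcripts 17 of the 19 reached the level tested and 0 passed, against 0.0444% of 15771 transcripts in either direction and 0.0127% higher. At an unadjusted p under 0.05 by limma, 1370 of the 15771 transcripts were higher and 532 lower, against 0 of these 17. The difference was positive for 15 of 17. Without TG placebo replicate 1 still 0 passed, against 3.2% of transcripts in either direction and 1.57% higher. The smallest adjusted p was 0.505 with all libraries, for NM_010777 at a difference of 0.70 (SE 0.39) by limma. The 2 Mobp transcripts end 6713 bases apart and share 345 exonic bases. Both followed the library pattern, NM_008614 at 6.93, 5.91 and 6.43 in TG NM-101, against 7.31, 5.23 and 5.29 in TG placebo, and NM_001039365 at 6.67, 5.71 and 6.05 in TG NM-101, against 7.26, 4.99 and 5.28 in TG placebo. NM_001039365 carried between 43.4% and 46.6% of the Mobp FPKM in TG NM-101 and between 45.7% and 49.9% in TG placebo. These shares are divided by length, 1536 bases for this form and 3286 for NM_008614. Of the undivided Mobp counts in WT placebo, NM_001039365 carried 23.3%, 26.4% and 26.0% in replicates 1 to 3. Of the Cnp FPKM, NM_009923 carried between 66.9% and 78.7% in TG NM-101 and between 73.6% and 76.7% in TG placebo. The 2 Cnp forms have the same start, end, exon number and length of 2357 bases in the annotation used. How reads were divided between these forms therefore cannot be checked.

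The short Mal transcript NM_001171187, all of whose 486 annotated bases lie within NM_010762, also stood apart. It was at 2.21, 3.47 and 1.84 in TG NM-101, against 0, 2.74 and 2.92 in TG placebo. In WT placebo it had 2, 106 and 528 counts in replicates 1 to 3, beside 3380, 2577 and 3355 counts of NM_010762. Because its bases are all shared, how reads were divided between the 2 forms cannot be checked from the table. The main form, NM_010762, followed the set at 6.78, 5.74 and 6.36 in TG NM-101, against 7.21, 5.66 and 5.40 in TG placebo.

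Levels in TG placebo and in WT placebo can only be described side by side, because the columns were normalized separately and are in different units. The TG placebo libraries lay on both sides of WT. Replicate 1 was above every WT library for 7 of 9 members, against 37.2% of 12410 genes, and below every one for 0, against 32.7%. Replicates 2 and 3 were below every WT library for 7 and 8 of 9, against 30.9% and 30.2% of genes, and above every one for 1 and 0, against 41.2% and 42.4%. Groups did not overlap for 0 of 9 members, against 36.7% of genes. The median difference of the 9 means was -0.44 on the log2 scale, beside 0.05 over all genes. Ermn had the most negative value at -0.86, with 3.88 ± 0.84 in TG placebo and 4.74 ± 0.19 in WT (SD, n = 3 each). With all libraries Opalin had the one positive value, 0.28. Cldn11 had -0.18, but 0.14 when TG placebo replicate 3 was left out and 0.02 when WT replicate 1 was. Mobp had -0.32, which was 0.08 without TG placebo replicate 2. The median was -1.02 without TG placebo replicate 1, -0.27 without replicate 2 and -0.21 without replicate 3, so its size turned on which TG placebo library was left out.

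The spread within groups was also set side by side. The SD of the 3 TG placebo libraries was larger than that of the 3 WT libraries for 9 of 9 members and for 59.2% of 12410 genes, for example 0.96 in TG placebo and 0.37 in WT for Mbp, and 1.22 in TG placebo and 0.35 in WT for Mobp. That of the TG NM-101 libraries was 0.45 for Mbp and 0.50 for Mobp, and it exceeded the WT SD for 5 of 9 members and for 52.1% of genes. Because the TG columns were deposited as log2 values and the WT values were rebuilt from counts, processing and group cannot be told apart here. The rebuilt WT level of Mal depends on the length taken for its short transcript: it was 6.86, 6.37 and 7.61 in replicates 1 to 3 with both forms, and 6.85, 6.07 and 6.69 from NM_010762 alone.

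Described in the same way, TG NM-101 minus WT had a median difference of -0.30, beside 0.06 over all genes. Members below every WT library numbered 1, 7 and 3 of 9 in NM-101 replicates 1 to 3, against 26.7%, 28.0% and 25.7% of genes. Members above every WT library numbered 1, 0 and 1, against 41.1%, 40.2% and 40.5%. Groups did not overlap for 0 of 9, against 36.6% of genes. Both differences share the WT libraries. Mal lay 0.54 below the WT mean, or 0.25 below it by the highest transcript only. Mobp had a value of 0.08, which was -0.18 without NM-101 replicate 1 and -0.09 without WT replicate 2. Their WT levels rest on annotated lengths that may not be those the authors used. Leaving out NM-101 replicate 1 put the median at -0.50, leaving out its replicate 2 at -0.15, and leaving out WT replicate 2 at -0.48.

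Other genes were taken from 15 lists, of the myelin programme, of other cell types and of nuclear-retained RNAs, which held 174 distinct genes tested between the TG groups. Of these 1 passed, against 0.134% of all genes tested. It was Sox9, a glial factor from the list of astrocyte markers, at a difference of 0.77 (limma adjusted p = 0.0425). This call depended on the setting. No gene at all was called higher without a filter or among genes above 0 in every library. The same held without trend or robust shrinkage and with the replicate number as a block. In the list of other myelin and mature oligodendrocyte genes 0 of 33 passed in either direction, with 23 positive and a median difference of 0.12. By p its first 3 were the tubulin polymerization protein Tppp at 0.31, the chemokine-like Cmtm5 at 0.28 and the oligodendrocyte-myelin glycoprotein Omg at 0.20. The median library deviation of this list was 0.30, -0.20 and 0.09 in TG NM-101, against 0.52, -0.30 and -0.40 in TG placebo, the order of the structural genes at a smaller size. Oligodendrocyte gap junction genes had 0 of 3 calls, with Gjc3 at 0.23 and Gjb1 at 0.23. Their median library deviation was 0.43, -0.22 and -0.07 in TG NM-101, against 0.50, -0.45 and -0.41 in TG placebo.

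Regulators, lipid enzymes and earlier stages had medians nearer to 0. The transcription factors and regulators had 0 of 12 calls and a median of 0.01. Their libraries still took the order of the structural genes at a smaller size. The median deviation was 0.12, -0.12 and 0.00 in TG NM-101, against 0.31, -0.17 and -0.27 in TG placebo. Zfp488 had a difference of -0.81, Zfp24 of 0.27 and Tcf7l2 of -0.58. The Tcf7l2 value (SE 0.495, limma adjusted p = 0.609) came from 1 library. It stood at 3.47, 1.63 and 1.68 in TG placebo, against 1.76, 1.79 and 1.49 in TG NM-101. Myelin lipid enzymes had 0 of 13 calls and a median of -0.06, with Cers2 at -0.13, Sqle at -0.09 and Sptlc2 at -0.10. By median deviation TG placebo replicate 1 was their highest library, at 0.20, but NM-101 replicate 2 was their lowest, at -0.19. Precursor genes had 0 of 12 calls and a median of 0.06, with Vcan at -0.35, Cacng4 at 0.34 and C1ql1 at 0.23. Newly formed oligodendrocyte genes had 0 of 7 calls and a median of -0.03, with Gpr17 at -0.42, Itpr2 at 0.20 and Tmem163 at -0.29. Over the 6 libraries the median deviation of precursor genes stayed between -0.20 and 0.14, and TG placebo replicate 1 was their lowest library.

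Among 12 genes that carry or process myelin mRNA, 0 passed. Hnrnpa2b1, which binds the transport signal of Mbp mRNA, had a difference of -0.31 (SE 0.09, limma adjusted p = 0.193). Qk, the quaking RNA-binding protein needed for myelin mRNAs, had 0.54 (SE 0.17, limma adjusted p = 0.208), and the motor Kif1b 0.27. Qk stood at 6.55, 6.14 and 6.46 in TG NM-101, against 6.19, 5.66 and 5.68 in TG placebo, so only NM-101 replicate 2 lay under the highest placebo library. Axon and node partners of myelin had 0 of 15 calls and a median of -0.04, with Cntnap2 at 0.31, Cadm2 at 0.28 and Cadm3 at -0.22. The peripheral list had 3 genes at the level tested and 0 calls, Sox2 at 0.57, Egr2 at 0.50 and Pmp22 at 0.26.

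**Figure D5:**
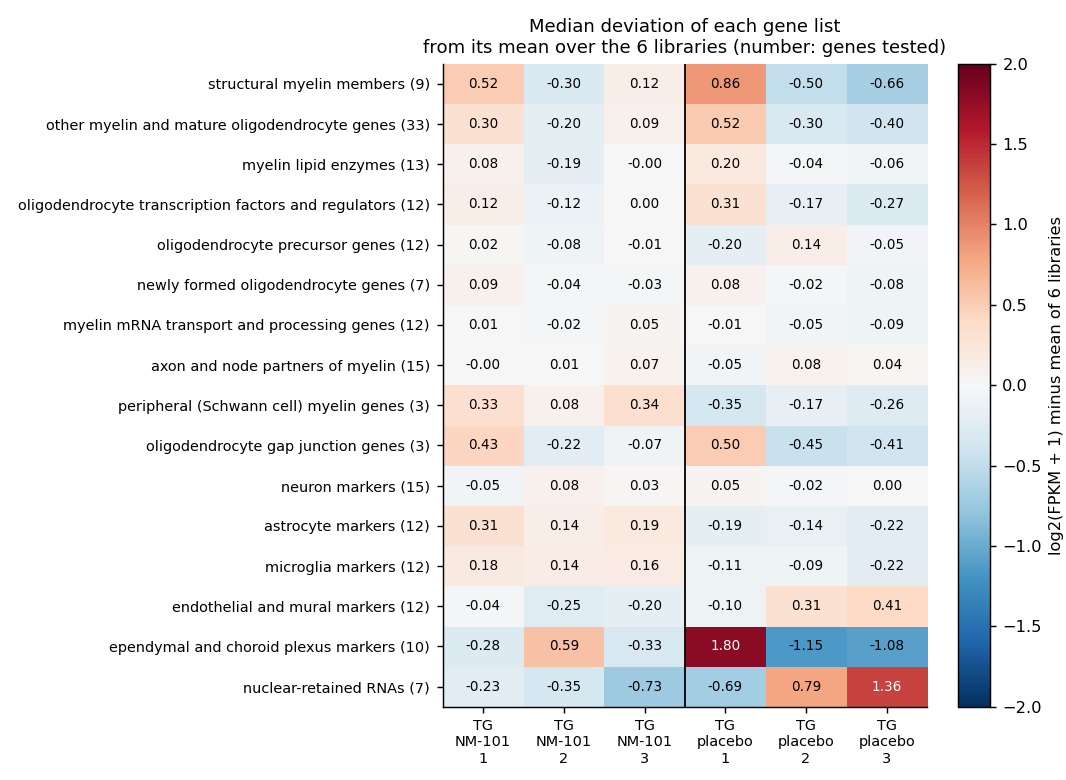
Median deviation of the tested genes of each list from their own means over the 6 TG libraries, on the log2 scale, for TG NM-101 (left 3 columns) and TG placebo (right 3 columns), with red above and blue below the mean. The structural myelin genes run from 0.86 in TG placebo replicate 1 to -0.66 in replicate 3, and the ependymal and choroid plexus list from 1.80 to -1.15.

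Markers of other cells were counted in the same way. Astrocyte markers had 1 of 12 calls, 12 of 12 positive and a median of 0.33, led by Sox9 with Slc1a2 at 0.68 and Cldn10 at 0.45. Microglia markers had 0 of 12 calls, 12 of 12 positive and a median of 0.33, with Gpr34 at 0.67 and C1qb at 0.37. Neuron markers had 0 of 15 calls and a median of 0.01, with Camk2a at 0.43, Map2 at 0.41 and Gad2 at 0.23. Endothelial and mural markers had 0 of 12 calls, 12 of 12 negative and a median of -0.30, with Igfbp7 at -0.79, Ly6a at -0.62 and Slco1a4 at -0.46. Ependymal and choroid plexus markers had 0 of 10 calls and a median of 0.28, with Enkur at 0.58, Ccdc153 at 1.52 and Tmem212 at 1.56. Nuclear-retained RNAs had 0 of 7 calls and a median of -0.97, with Neat1 at -1.07, Mirg at -0.97 and Meg3 at -1.69.

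Genes outside the set with the most similar course were ranked by the root mean square difference between their centred log2 values and the median of the members, over the 6 TG libraries and 12690 genes. The closest were Lpar1 at 0.06, a lysophosphatidic acid receptor of oligodendrocytes, the calcium-binding Efhd1 at 0.07, the tetraspanin Tspan2 at 0.08, Prr18 at 0.09 and Pdlim2 at 0.11, where the median gene stood at 0.57. Lpar1, Tspan2 and Prr18 were on the list of other myelin genes. Measured against the median of the other 8, Mal stood at 0.05, Mog at 0.08 and Mobp at 0.29, and Opalin was the farthest member at 0.58. The measure describes these 6 libraries only.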

How the data were processed

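The labels' protocols give RNA extraction by a kit meant for FFPE tissue and QuantSeq libraries, whose reads come from the 3′ end of transcripts. Bowtie2 and mm10 are named in the submitters' processing notes. How reads were counted, and against which annotation, is not given in the sources used here. In the table the authors deposited, the 3 WT columns hold counts per RefSeq transcript. The 6 TG columns hold deposited log2 values, read as log2(FPKM + 1): over 15796 transcripts they rose with WT CPM (slope 0.98) and fell with transcript length (slope -0.89). No count model over all 9 libraries was possible.

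Transcripts were summed per symbol of a RefSeq table (GRCm38.p6, 32394 of 33299 matched) on the linear scale. The TG groups were compared with limma 3.58.1 in R 4.3.3 (variance trend, robust shrinkage, pseudocount 1, mean log2 of at least 1), which was also run on simulated data. WT counts were scaled by totals and GENCODE M21 lengths and not tested against TG. The members and lists were chosen with earlier results of these data known. The text names the members, the 3 genes of each list with the smallest p, and the 6 genes most like the members. A few genes that this rule picks are not reported here. Alternatives changed pseudocount, filter, scaling, shrinkage, block, transcript choice and libraries.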

Additional observations from a re-analysis of the deposited data

How the results depend on the processing

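The absence of calls among the 9 genes held under 8 alternatives that kept all libraries, and all 72 values kept their sign. The count of all genes called was 17 in the reported fit and 11 with a pseudocount of 5. It was 4 without a filter, 4 with median-ratio scaling, 4 without trend or robust shrinkage, 7 with the highest transcript only and 0 with genes above 0 in every library (where limma gave 1362 positive and 532 negative differences with an unadjusted p below 0.05). Of transcripts 7 were called, with 3 at a pseudocount of 0.1 and 3 among those above 0 in every library. With the replicate number as a block, 3 genes and 1 transcript were called and 0 members. Across all genes, samples of the same number did not deviate together (correlations of 0.04, -0.03 and -0.02 for numbers 1 to 3). Such correlations cannot exclude that the numbers pair samples. For the members, replicate 1 had the highest median deviation in both groups, 0.52 in TG NM-101 and 0.86 in TG placebo. The lowest was replicate 2 in TG NM-101 and replicate 3 in TG placebo. With the block the limma SE went from 0.51 to 0.17 for Ermn and from 0.26 to 0.33 for Opalin. NM_001025245 turned to -0.03 with median-ratio scaling.

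Leaving out 1 library gave between 2 and 2262 genes, 0 and 507 transcripts and 0 and 3 members called. The median of the members ranged from -0.068 to 0.69. Single differences ranged from -0.25 to 0.56 for Cldn11, -0.068 to 0.56 for Cnp, -0.27 to 0.34 for Mag, -0.11 to 0.69 for Mal, -0.043 to 0.69 for Mog, 0.02 to 0.87 for Mbp, 0.007 to 1.10 for Mobp, 0.077 to 0.86 for Ermn and -0.55 to -0.11 for Opalin. For transcripts they ranged from -0.079 to 0.058 for NM_001025245, -0.25 to 0.49 for NM_001025251, -0.036 to 0.83 for NM_001025259, -0.13 to 1.01 for NM_001039365, -0.04 to 0.58 for NM_001146318, -0.32 to 1.14 for NM_001171187, -0.11 to 0.54 for NM_009923 and -0.14 to 0.76 for NM_010762. The range stayed above 0 for NM_001025255 (0.218 to 1.051), NM_001025256 (0.289 to 1.215), NM_008614 (0.121 to 1.162) and NM_010777 (0.422 to 1.132). Against the median of all 9 members, which holds the gene itself, the 9 relative differences had the same signs as against the other 8, with Cldn11 at -0.06 (exact permutation p = 0.1, and 0.7 against other myelin genes). On that measure, without 1 library, Cnp ranged from -0.061 to 0.15 and Opalin from -0.76 to 0.007. The cause of these shifts was not tested. Values against WT moved by less than the pooled SD of the groups compared under the alternatives run, but leaving out 1 library turned the sign of some: Cldn11 ranged from -0.68 to 0.14 and Mobp from -1.02 to 0.075 for TG placebo, and for TG NM-101 Cldn11 ranged from -0.48 to 0.084, Mobp from -0.18 to 0.32 and Opalin from -0.27 to 0.17. The median for TG placebo ranged from -1.02 to -0.21. TG depth is not recorded, and 3 libraries a group limit what can be called.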
